A study of Homo sapiens with 11 samples.

Results

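The regions described here are the mH2A1-only peaks of MDA-MB-231 cells, which are the peaks of total mH2A1 that share no base with any peak of mH2A1.1. They were chosen by the measured peak positions of both antibodies, so the overlap and the gap to mH2A1.1 are given as descriptions. They number 12515 of the 24222 total mH2A1 peaks, and the other 11707, called common peaks here, share at least 1 bp with an mH2A1.1 peak. MDA-MB-231 (MDA-MB231 in the labels) is an established human triple-negative breast cancer cell line of mesenchymal character. Chromatin of WT cells was immunoprecipitated once with a custom antibody against mH2A1.1 and once with the antibody Ab37264. The latter binds both splice isoforms but has less affinity for mH2A1.1 than the custom antibody has. For RNA-seq of the same line there were 4 libraries, 2 of WT and 2 of mH2A1.1 KD cells. KD cells were collected 3 days after transfection with an siRNA against mH2A1.1 at 11 nM in the INTERFERin reagent, and WT cells received the reagent without siRNA.

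MacroH2A1 is a histone H2A variant with a large globular macro domain, and it replaces canonical H2A in part of the nucleosomes. Its gene, MACROH2A1, is spliced into mH2A1.1, whose macro domain can bind ADP-ribose and its polymers, and mH2A1.2, whose macro domain cannot. MacroH2A1 is known from the inactive X chromosome and from broad domains with H3K27me3, and the isoforms are known to differ between proliferating and differentiated or mesenchymal cells. A peak of the pan-isoform antibody with no mH2A1.1 peak is a candidate for chromatin rich in mH2A1.2, but no library with an antibody specific to mH2A1.2 was analysed here, so the name mH2A1-only describes the overlap rule alone. Each antibody had 1 library, so differences between peak classes have no replicate check, and the 95% Clopper-Pearson intervals given below cover counting error over peaks or genes only.

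Windows from 8 of the mH2A1-only peaks show the range of sequence under them. They are printed 5′ to 3′ on the strand of the gene, or on the plus strand for the last 2, with CpG dinucleotides in capitals. The first 3 are promoter windows of genes with RNA in WT cells, the next 3 are promoter windows of genes without a count in WT cells, and the last 2 are the centres of the widest and of the most isolated mH2A1-only peak. Promoter windows run from 250 bases before to 50 bases after a gene start and come from RefSeq on GRCh38.p14. Where a gene had several such windows with the start in an mH2A1-only peak, the one with the lowest coordinate was taken. The windows of PGR and IL17F thus lay wholly, and that of ARL6IP1 mostly, downstream of the outermost annotated start. That start is at position 101129813 for PGR, 52245689 for IL17F and 18801572 for ARL6IP1. H2AC11, a replication-dependent histone H2A gene, has its window at chr6:27132793-27133092 (plus strand), with 16 CpGs and a match to the letters TATAAA. RPL41, which encodes a small protein of the large ribosomal subunit, has its window at chr12:56116383-56116682 (plus strand), with 19 CpGs. ARL6IP1, an endoplasmic reticulum membrane protein gene, has its window at chr16:18801321-18801620 (minus strand), with 31 CpGs.
H2AC11: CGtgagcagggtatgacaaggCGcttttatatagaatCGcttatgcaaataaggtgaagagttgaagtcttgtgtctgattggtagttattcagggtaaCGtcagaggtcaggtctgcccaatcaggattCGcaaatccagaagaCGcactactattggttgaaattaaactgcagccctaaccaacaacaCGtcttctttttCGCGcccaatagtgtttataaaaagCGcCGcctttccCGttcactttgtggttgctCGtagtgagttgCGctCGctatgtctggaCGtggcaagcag
RPL41: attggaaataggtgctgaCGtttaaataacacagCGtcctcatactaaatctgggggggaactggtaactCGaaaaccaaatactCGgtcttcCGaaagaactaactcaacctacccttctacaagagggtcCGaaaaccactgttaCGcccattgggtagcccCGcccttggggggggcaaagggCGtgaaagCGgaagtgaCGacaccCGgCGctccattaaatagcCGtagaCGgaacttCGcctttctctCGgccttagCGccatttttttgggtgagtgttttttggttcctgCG
ARL6IP1: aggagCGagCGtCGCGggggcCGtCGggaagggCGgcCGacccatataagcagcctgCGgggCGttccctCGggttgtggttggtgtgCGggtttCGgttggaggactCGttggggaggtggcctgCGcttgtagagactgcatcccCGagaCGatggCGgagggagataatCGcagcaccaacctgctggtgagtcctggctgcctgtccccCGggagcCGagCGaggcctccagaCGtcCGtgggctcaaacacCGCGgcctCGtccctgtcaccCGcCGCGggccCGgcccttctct

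PGR encodes the progesterone receptor, whose loss is one of the defining features of triple-negative tumours. Its window at chr11:101129014-101129313 (minus strand), inside the annotated gene, held 17 CpGs. CCL19, a chemokine that attracts lymphocytes, has its window at chr9:34691227-34691526 (minus strand), with 2 CpGs. IL17F, a cytokine of T helper cells, has its window at chr6:52244451-52244750 (minus strand), also inside the annotated gene, with 4 CpGs and a match to TATAAA. The centre of the widest peak lies at chr4:4183401-4183600, beside the OTOP1 gene, with 7 CpGs in 200 bases. The centre of the most isolated peak lies at chr13:90616401-90616600, with 1 CpG in 200 bases.
PGR: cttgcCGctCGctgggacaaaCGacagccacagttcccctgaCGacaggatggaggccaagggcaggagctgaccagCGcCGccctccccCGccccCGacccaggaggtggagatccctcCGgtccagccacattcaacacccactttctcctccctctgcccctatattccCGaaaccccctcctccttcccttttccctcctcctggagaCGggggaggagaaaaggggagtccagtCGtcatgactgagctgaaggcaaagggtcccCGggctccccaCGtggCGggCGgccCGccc
CCL19: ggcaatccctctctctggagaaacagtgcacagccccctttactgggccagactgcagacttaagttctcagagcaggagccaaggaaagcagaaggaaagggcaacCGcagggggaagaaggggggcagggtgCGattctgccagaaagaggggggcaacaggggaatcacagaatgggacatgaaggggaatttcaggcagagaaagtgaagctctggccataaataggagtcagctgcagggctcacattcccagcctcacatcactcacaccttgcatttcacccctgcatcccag
IL17F: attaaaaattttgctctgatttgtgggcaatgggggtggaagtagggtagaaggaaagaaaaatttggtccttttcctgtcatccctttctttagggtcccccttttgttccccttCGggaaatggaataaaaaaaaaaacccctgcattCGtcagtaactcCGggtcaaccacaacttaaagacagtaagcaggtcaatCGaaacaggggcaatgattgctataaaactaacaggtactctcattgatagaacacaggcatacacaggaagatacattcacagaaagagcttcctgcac
Widest peak: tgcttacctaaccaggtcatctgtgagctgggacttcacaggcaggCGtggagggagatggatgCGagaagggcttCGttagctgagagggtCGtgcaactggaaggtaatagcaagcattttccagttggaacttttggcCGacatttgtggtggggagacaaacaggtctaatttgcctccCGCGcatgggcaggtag
Most isolated peak: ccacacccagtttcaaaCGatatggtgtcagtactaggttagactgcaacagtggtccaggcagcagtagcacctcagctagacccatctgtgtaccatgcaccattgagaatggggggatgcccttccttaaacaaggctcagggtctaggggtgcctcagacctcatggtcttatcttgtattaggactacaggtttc

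The windows in print span the spread of the whole set. Over the 941 RefSeq promoter windows whose gene start lay in an mH2A1-only peak, the median number of CpGs in 300 bases was 15.0, with quartiles of 4 and 28.0. The median was 13.0 over the 5074 windows in common peaks, 24.0 over the 6827 windows in mH2A1.1-only peaks, 9.00 over the 22274 windows under no peak and 14 over all 35116 windows. At least 20 CpGs were present in 40.3% of the windows in mH2A1-only peaks (95% interval 37.1 to 43.5), against 39.6% (38.2 to 40.9) in common peaks and 61.6% (60.5 to 62.8) in mH2A1.1-only peaks. The letters TATAAA on either strand were found in 9.46% of the windows in mH2A1-only peaks (7.66 to 11.5), against 7.15% in common peaks, 5.27% in mH2A1.1-only peaks, 14.5% under no peak and 11.5% of all windows. Genes with several starts contribute several windows, so the windows are not independent. Starts in mH2A1-only peaks thus included CpG-rich and CpG-poor promoters alike, and their CpG counts lay near those of common peaks and below those of starts under mH2A1.1 alone.

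Both peak lists lie on a grid of 3000-bp bins. The mH2A1-only peaks covered 50097000 bp, or 1.72% of the sequenced bases of chromosomes 1 to 22 and X, and the common peaks covered 6.62%. A single bin made up 84.4% of the mH2A1-only peaks but 35.2% of the common peaks. The share of mH2A1 peaks without mH2A1.1 fell with the width of the peak, from 71.9% (71.2 to 72.7) of the 14685 peaks of 3000 bp to 40.4% of those of 6000 bp, 25.3% of those of 12000 bp and 10.4% of those of 18000 bp. Among the 2132 mH2A1 peaks of 27000 bp or more, 10 lacked mH2A1.1 (0.469%, 0.225 to 0.861). A wider peak offers more bins to an overlap, so this order follows in part from the rule that chose the peaks. Broad mH2A1 domains were therefore almost always common, and the mH2A1-only set was one of short peaks.

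**Figure D1:**
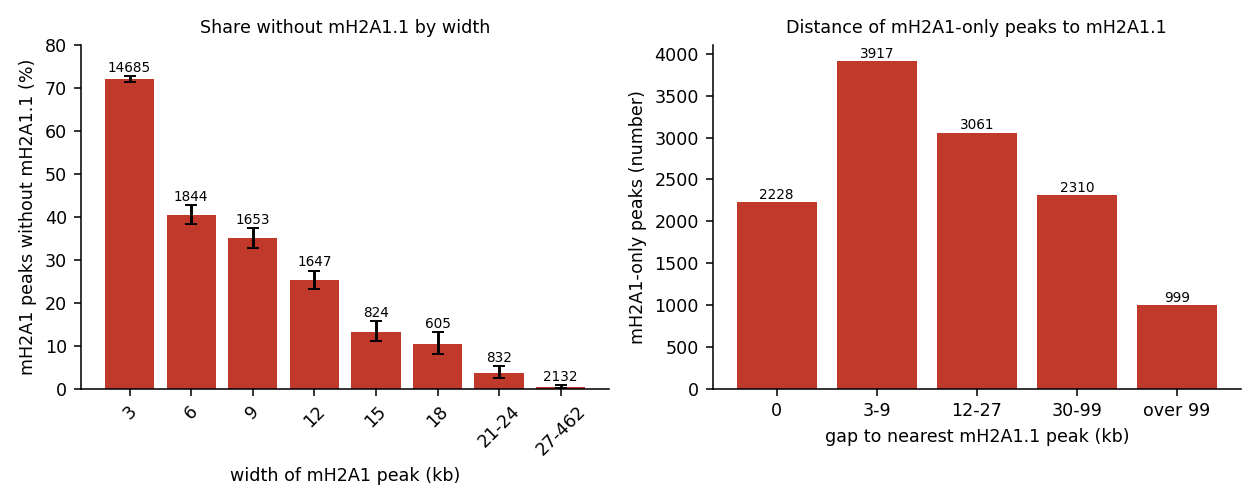
Left, share of total mH2A1 peaks without mH2A1.1 (%) by the width of the peak in kb, with 95% Clopper-Pearson intervals and the number of mH2A1 peaks above each bar. Right, number of mH2A1-only peaks by the gap to the nearest mH2A1.1 peak in kb. The share fell from 71.9% at 3 kb to 0.469% at 27 kb and more, and 2228 peaks touched an mH2A1.1 peak.

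The edge of the rule fell among peaks that lay side by side with mH2A1.1. Just inside it, 2228 mH2A1-only peaks touched an mH2A1.1 peak with no base between them, and just outside it, 6003 common peaks overlapped by a single bin of 3000 bp, of which 4122 were themselves 1 bin wide and so lay wholly under mH2A1.1. The median gap from an mH2A1-only peak to the nearest mH2A1.1 peak was 12000 bp. A gap over 99000 bp was present for 999 peaks (7.98%), and the most isolated peak, at chr13:90615001-90618000, lay 2166000 bp away. Both neighbours in the mH2A1 list were also mH2A1-only for 5127 peaks. Neighbouring mH2A1 peaks were never closer than 9000 bp, so shorter interruptions do not separate peaks in the list.

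The composition of the set changed step by step with the distance from mH2A1.1. From the touching peaks through gaps of 3000 to 9000 bp, 12000 to 27000 bp, 30000 to 99000 bp and over 99000 bp, the share at promoters was 19.2%, 15.8%, 15.0%, 12.9% and 12.3%. Over the same groups the share between genes was 29.8%, 31.9%, 32.6%, 34.6% and 39.3%, and the median GC content was 46.5%, 45.8%, 44.7%, 43.6% and 42.4%. Of the peaks whose midpoint lay in a measured protein-coding gene, the share in a gene without a count in either WT library was 17.1%, 17.5%, 19.6%, 25% and 30.1%. Peaks far from mH2A1.1 were thus more often intergenic, poorer in GC and more often in silent genes than peaks beside it. Their width differed as well, since 75.6% of the touching peaks and 95.7% of the most distant ones were 1 bin wide.

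A promoter, here a transcription start site (TSS) with 1000 bp on each side, was touched by 15.4% of the mH2A1-only peaks (14.8 to 16.0). The share was 39.4% (38.5 to 40.3) for common peaks and 22.2% (21.6 to 22.8) for the 18838 mH2A1.1-only peaks. Since wider peaks touch more promoters, peaks of 1 bin were also set side by side. The promoter share was then 13.2% (12.6 to 13.9) for mH2A1-only, 20.8% (19.6 to 22.1) for common and 17.9% (17.3 to 18.6) for mH2A1.1-only peaks, and 7.62% for bins under no peak. Introns held 34.6% of the 1-bin mH2A1-only peaks and exons away from promoters 19.1%. Regions between genes held 33.0% (32.1 to 33.9), against 28.9% (27.5 to 30.3) of the common and 26.3% (25.6 to 27) of the mH2A1.1-only peaks of this width, and 36.2% of the bins without a peak. On each of these measures, at this width, the mH2A1-only peaks stood closer to the rest of the genome than the common peaks did, and their promoter share was still above that of bins without a peak.

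**Figure D2:**
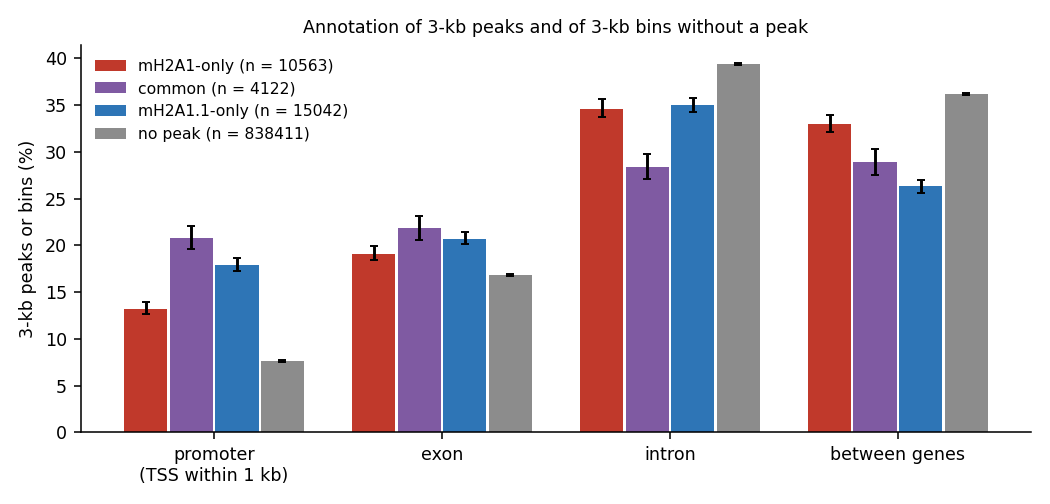
Share (%) of 3-kb peaks of each class, and of 3-kb bins under no peak, at a promoter, in an exon, in an intron or between genes, each peak counted once in this order of priority. Bars show 95% Clopper-Pearson intervals. The mH2A1-only peaks had the lowest promoter share of the peak classes, 13.2%, and the highest share between genes, 33.0%.

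The mH2A1-only peaks were rich in GC, though less than the common peaks. At 1 bin, the median GC content was 44.8% (quartiles 42.1 and 48.0) for mH2A1-only, 47.8% (44.8 and 51.8) for common and 45% (42.2 and 48.6) for mH2A1.1-only peaks, and 38.9% (35.9 and 42.5) for bins without a peak. CpG density followed the same order, with medians of 11.0, 14.3, 11.7 and 7 CpGs per kb. The classes differed more at promoters. There the 1396 mH2A1-only peaks of 1 bin had 15.7 CpGs per kb, the 859 common peaks 22 and the 2698 mH2A1.1-only peaks 26.0, with 10.3 in bins without a peak. Away from promoters the medians were 10.7, 13.0, 11.0 and 7. All 3 peak classes stood above the rest of the genome in GC, and ChIP and sequencing efficiency also vary with GC content, whose part in the peak calls was not tested.

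**Figure D3:**
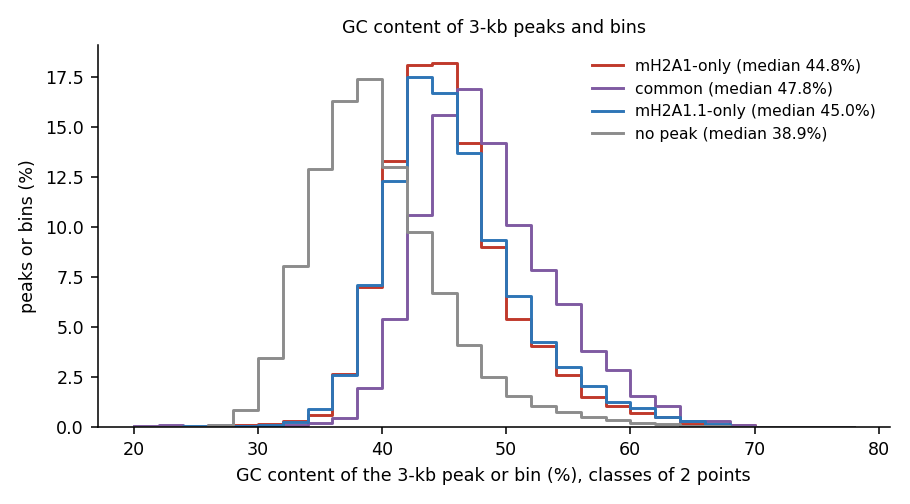
Distribution of GC content (%) in classes of 2 percentage points over 3-kb mH2A1-only, common and mH2A1.1-only peaks and 3-kb bins under no peak, as the share of peaks or bins (%). The mH2A1-only and mH2A1.1-only curves lie almost on each other, with medians of 44.8% and 45%, between bins without a peak (38.9%) and common peaks (47.8%).

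The mH2A1-only peaks were spread over all chromosomes but the Y. They made up between 32.9% of the mH2A1 peaks on chromosome 19 and 68.8% on chromosome 13, and 66.6% on the X chromosome, which carries 2.42 of them per Mb, the lowest density, against 6.18 per Mb on chromosome 22. The gene-rich chromosomes 17, 19 and 20 had the lowest shares of mH2A1-only peaks (40.1%, 32.9% and 41.5%), while chromosomes 4, 13, 18 and X had the highest (63.3%, 68.8%, 61.8% and 66.6%). At least 1 such peak lay in 2344 windows of 1 Mb, with a median of 5, and 318 windows held 10 or more. The densest windows held 18 each. One of them, at 14 to 15 Mb of chromosome 1, lies in KAZN, which encodes the desmosome-associated protein kazrin, and also held 34 mH2A1.1 peaks. Another, at 170 to 171 Mb of chromosome 3, holds EIF5A2 and 22 mH2A1.1 peaks, and the third, at 123 to 124 Mb of chromosome 10, holds the homeobox genes HMX2 and HMX3. Dense clusters of mH2A1-only peaks thus lay in windows that also held mH2A1.1, and 76 of the windows with an mH2A1-only peak held no mH2A1.1 peak.

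The 5 widest mH2A1-only peaks lay in or near genes of different kinds. The widest, 45000 bp at chr4:4161001-4206000, overlapped OTOP1, of which 60.9% lay under 2 mH2A1-only peaks. OTOP1 encodes a proton channel of sour taste cells and had 0 and 1 counts in the WT libraries. A peak of 33000 bp at chr2:30318001-30351000 overlapped 5730 bp of LBH, which encodes a transcription cofactor of Wnt signalling and of mammary basal cells and had 87 and 70 counts. A peak of 30000 bp at chrX:107700001-107730000 covered part of TSC22D3, the glucocorticoid-induced leucine zipper gene GILZ, of which 30.8% lay under mH2A1-only peaks and which had 208 and 166 counts. The other 2, of 33000 bp at chr22:27045001-27078000 and of 30000 bp at chr5:124500001-124530000, overlapped only genes that are not protein-coding. The nearest protein-coding genes lay 414332 and 106913 bp away. The protein-coding genes in these peaks thus ranged from barely detected to transcribed.

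The label of the cells was checked against marker genes before RNA levels were compared. The 7 genes listed as present in this line, among them the mesenchymal genes VIM and ZEB1 and the simple-epithelial keratin genes KRT8 and KRT18, were all expressed, at 146 to 2425 CPM (counts scaled to the library total) in WT. Of 7 luminal genes, ESR1 and PGR had no count in WT, FOXA1 had 1 count, and CDH1, ERBB2, EPCAM and GATA3 reached 1 CPM, with CDH1 at 22 and 19 counts. Of 7 markers of blood, endothelial and fibroblast cells, 6 were measured, with a summed level of 3.68 and 3.82 CPM in WT and 5.37 and 3.90 in KD. Only the endothelial gene PECAM1 reached 1 CPM in WT, with 29 and 26 counts, and DCN was at 0. Library totals were 9794674 and 7856892 counts in WT and 5584962 and 2309549 in KD. KD replicate 2 stood apart, with no counts on chromosomes 22 and X and 30 on chromosome 21. Genes of these 3 chromosomes were left out of the comparison of KD with WT, and values without KD replicate 2 are given for the counts, medians and genes that moved most. A count of 0 in both WT libraries allows a level of up to 0.170 CPM.

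Of 62663 annotated genes, 1660 (2.65%) had their TSS in an mH2A1-only peak, among them 570 protein-coding, 536 long noncoding RNA and 42 microRNA genes. These starts lay in 1394 mH2A1-only peaks, 228 of which held more than 1. The count tables measured 683 of the genes, or 2.96% of 23061 measured genes, and 583 of the 683 also had the start of their canonical transcript in such a peak. Of these 683 genes, 232 were silent, that is without a count in either WT library (34.0%, 30.4 to 37.7), and 294 reached 1 CPM in both (43.0%, 39.3 to 46.9). The silent share was 33.5% (32.0 to 35.1) of the 3784 genes with their TSS in a common peak, 14.5% (13.6 to 15.5) of the 5074 with it in an mH2A1.1-only peak and 37.9% (37.1 to 38.7) of the 13520 with it under no peak. Over all measured genes it was 31.9%, and 51.5% of them reached 1 CPM in both WT libraries. Among protein-coding genes the silent shares were 27.8% (24.0 to 31.8), 26.2%, 8.18% and 28.2%, beside 23.1% of all measured ones. Genes that start in mH2A1-only peaks were thus silent about as often as genes that start in common peaks. They were silent more often than genes that start under mH2A1.1 alone. Their silent share was near that of all measured genes, but above it among protein-coding genes, and fewer of them reached 1 CPM.

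The levels of the genes also lay near those at common peaks. Per kb of exon, the median WT level of the 683 genes was 0.138 CPM (0.127 and 0.104 in the 2 WT libraries). It was 0.122 for common, 4.12 for mH2A1.1-only and 0.224 for no peak, and 0.595 over all measured genes. Among the genes that reached 1 CPM in both WT libraries, the median level per kb was 4.41 for mH2A1-only (quartiles 1.58 and 11.1), 5.32 for common, 7.96 for mH2A1.1-only and 6.37 for no peak. The median exon GC content was 49.3%, 56.7%, 51.4% and 44.7% in this order. Taken by the start of the canonical transcript, 669 genes lay in mH2A1-only peaks, with 36.0% silent and a median of 0.0681 CPM per kb.

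**Figure D4:**
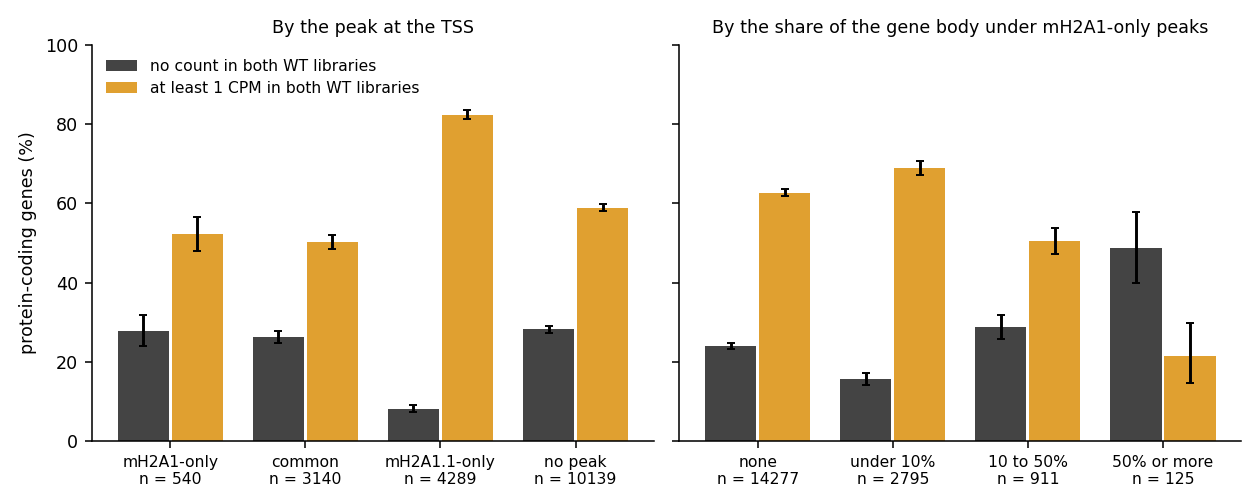
Share (%) of protein-coding genes without a count in either WT library (dark) and with at least 1 CPM in both (light), by the class of peak at the TSS (left) and by the share of the gene body under mH2A1-only peaks (right), with 95% Clopper-Pearson intervals. Genes with at least 50% of the body covered were silent in 48.8% of cases, and genes with an mH2A1-only TSS in 27.8%, against 8.18% under mH2A1.1 alone.

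Strongly transcribed genes were present among these starts. The 8 protein-coding genes with the highest WT level per kb of exon were H2AC11, HSP90AA1, BSG, RPL41, FAT1, YWHAB, ARL6IP1 and STT3A. H2AC11 stood at 513 and 701 CPM per kb in the WT libraries, and the whole gene lay in the peak shown above, 9000 bp from mH2A1.1. BSG, which encodes the surface glycoprotein basigin that induces matrix metalloproteinases, stood at 103 and 111 CPM per kb, with 63.2% of the gene under a peak of 9000 bp. RPL41 stood at 94.6 and 104 CPM per kb and lay wholly in its peak, YWHAB, a 14-3-3 protein gene, at 81.4 and 79.1, and ARL6IP1 at 71.2 and 70.4. For HSP90AA1, the stress-inducible cytosolic HSP90 chaperone (502 and 505 CPM per kb), FAT1, an atypical cadherin (85.1 and 83.1), and STT3A, a catalytic subunit of the oligosaccharyltransferase (61.4 and 63.4), only the outermost annotated start lay in the peak. The canonical start of FAT1 lay in an mH2A1.1-only peak, and those of HSP90AA1 and STT3A under no peak. Reads of H2AC11 and RPL41 are shared in part with paralogs or pseudogenes, so their counts are uncertain.

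Gene families were compared by how many measured members start in mH2A1-only peaks, beside 2.96% for all measured genes. In most of the next families, which belong to differentiated cells, the genes that started there had no count in WT. Silent genes made up 49.1% of all measured cytochrome P450, 57.3% of chemokine and interleukin, 57.6% of potassium channel and 94.5% of olfactory receptor genes. Of 53 cytochrome P450 genes, 5 started in such peaks (CYP2B6, CYP4A22, CYP4F2, CYP4F11 and CYP4F22, enzymes of drug and fatty acid oxidation), and all 5 were silent. Of 75 chemokine and interleukin genes, 5 did so (CCL19, IL17F, IL21R, IL36G and IL5), all silent in WT. Of 330 olfactory receptor genes, 3 did so (OR51I1, OR10H2 and OR1F1), all silent, with OR51I1 wholly in a peak of 9000 bp that lay 150000 bp from mH2A1.1. Of 92 potassium channel genes, 5 did so, among them KCNJ11, the pore of the ATP-sensitive channel of beta cells, in a peak of 27000 bp that it shares with ABCC8, its regulatory subunit. Of these 5 channel genes 2 were silent, and none reached 1 CPM. The GABA receptor genes GABRG3 and GABRQ were silent and started 321000 and 174000 bp from mH2A1.1.

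Developmental regulators started more often in common than in mH2A1-only peaks, as did measured genes as a whole (16.4% against 2.96%). Of 142 developmental factor genes of families such as PAX, LHX, NKX, TBX, SOX and FOX, 7 started in mH2A1-only peaks (4.93%) against 33 in common peaks. TBX2, a T-box repressor, had 2 and 1 counts in WT with 74.4% of the gene under a peak, NKX2-4 had none with 70.6%, and SOX7 had 3 and 1 with 37.2%. One of the 39 HOX genes, HOXD1, started in an mH2A1-only peak and 22 in common peaks, and HOXD1 had 15 and 6 counts. No clustered protocadherin, neural adhesion or UGT gene started in an mH2A1-only peak. Of the 53 clustered protocadherin genes, 22 (41.5%) were crossed by one, beside 19.5% of all measured genes. A peak can cross several genes that overlap each other, so these 22 need not be separate cases. Transcribed members were present in other families. Of 494 ZNF zinc finger genes 13 did so and 9 of the 13 reached 1 CPM, with ZNF746 at 322 and 298 counts and ZNF232 at 78 and 74. Of 63 genes of the histone list 4 did so, of which H2AC11 and its divergent neighbour H2BC11 were expressed and H1-3 and the oocyte linker histone gene H1-8 were silent. Of the 77 genes of the ribosomal protein list 1 did so, RPL41, while 13 started in common and 28 in mH2A1.1-only peaks. RPLP1, which that list does not hold, also started in an mH2A1-only peak.
The remaining lists held 1 to 3 such genes each. They were PCDH7 (78 and 60 counts in WT) among cadherins and protocadherins, KRT77 among keratins, KRTAP5-9, KRTAP10-1 and KRTAP12-2 among keratin-associated proteins, GRM8 among glutamate receptors, CACNA1B and CACNA2D1 among voltage-gated channels, and MAGEB17 and GAGE13 among cancer-testis genes. CACNA2D1, an auxiliary calcium channel subunit, was the only one of these besides PCDH7 that reached 1 CPM, with 272 and 174 counts. No family share was tested against 2.96%.

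In all, 3831 protein-coding genes of the 18108 measured were crossed by an mH2A1-only peak. Long genes with many such peaks were KAZN (18 peaks, 75000 bp), NTM (9 peaks, 69000 bp), TMEM132D (14 peaks, 60000 bp), RUNX1 (15 peaks, 60000 bp), TG (7 peaks, 54000 bp), PDZD2 (11 peaks, 52870 bp), PTPRN2 (7 peaks, 51000 bp) and CAMTA1 (13 peaks, 48000 bp). NTM and TMEM132D are neuronal surface genes, TG encodes thyroglobulin and PTPRN2 a protein of dense-core vesicles, and they had between 0 and 2 counts per WT library. RUNX1, a transcription factor of blood and epithelial lineages, had 2428 and 1835 counts, KAZN 238 and 179, PDZD2, a PDZ-domain protein gene, 204 and 185, and CAMTA1, a calmodulin-binding transcription activator, 194 and 146. The first kind was thus near silent and the other transcribed, and the peaks covered 4.86% to 20.2% of each gene. Peaks of mH2A1.1 covered 9.00% (NTM) to 32.8% (PDZD2) of each gene. That was more than the mH2A1-only cover in all of them but TG (13.4% against 20.2%).

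Genes whose body lay mostly under mH2A1-only peaks were more often silent than others. At least 50% of the gene was covered for 125 protein-coding genes, of which 61 were silent (48.8%, 39.8 to 57.9) and 27 reached 1 CPM (21.6%, 14.7 to 29.8). The silent share was 28.8% (25.8 to 31.8) of the 911 genes with 10 to 50% covered, 15.7% (14.3 to 17.1) of the 2795 with less, and 24.0% (23.3 to 24.7) of the 14277 with none. The median gene length was 5.04, 25.1, 116 and 22 kb in this order, so length moved with the cover, and its part was not tested. Examples chosen after their values were seen were SMO, the Hedgehog signal transducer, with 84.3% covered and no count, HMX1, a homeobox factor of sensory organs, with 69.9% and no count, and CD300A, an inhibitory receptor of leukocytes, with 79.4% and no count. BSG, RPL41, H2AC11 and SF3B4, a splicing factor subunit with 62.5% covered and 804 and 762 counts, reached 1 CPM despite this cover. So did ZNF696 with 81.0% covered and 95 and 70 counts and CLPP with 51.3% and 292 and 285 counts. Peaks of mH2A1.1 covered a further 48.7% of CLPP and 12.2% of BSG, but no part of RPL41, H2AC11, SF3B4 or ZNF696.

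MACROH2A1 itself started in a common peak, and 1 mH2A1-only peak covered 4.58% of the gene. It had 3658 and 2993 counts in WT and 1449 and 635 in KD, which are 385 and 394 CPM in WT and 274 and 301 in KD after TMM scaling. The groups did not overlap, with a log2 fold change of -0.44 (SE 0.17, adjusted p = 0.204, edgeR quasi-likelihood test with Benjamini-Hochberg adjustment), and -0.50 without KD replicate 2. The counts add both isoforms, so they do not measure mH2A1.1 alone. MACROH2A2, which encodes the related variant mH2A2, had no count in any library, and 2 mH2A1-only peaks covered 20.1% of it. Of 17 genes on the RT-qPCR and ChIP-qPCR list, none started in an mH2A1-only peak. Among them, 2 were crossed by a single such peak of 3000 bp, RBL1, a pocket protein of the retinoblastoma family, and CAPZA2, an actin capping subunit.

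The comparison of KD with WT asked whether genes at mH2A1-only peaks changed when mH2A1.1 was depleted. No gene passed an adjusted p under 0.1 with a fold change over 1.5 in the edgeR quasi-likelihood test, which is 0% of the 10943 genes tested and 0 of the 266 tested genes with their TSS in an mH2A1-only peak. At an unadjusted p under 0.05 there were 55 of the 266 (20.7%, 29 higher and 26 lower in KD), beside 23.2% of all genes tested. DESeq2 called 9 of 170 such genes higher and 8 lower, which is 5.29% and 4.71%, beside 5.57% and 5.78% of the 7739 genes to which it gave an adjusted p. Without KD replicate 2, edgeR called 5 of 278 higher and 14 lower, beside 2.74% and 5.31% of all genes, where the lone KD sample is assumed to vary like the WT samples. With offsets for exon length and GC content, edgeR called 7 of 266, beside 3.06% of all genes. In each of these counts the share of genes at mH2A1-only starts lay at, or slightly below, that of all genes.

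The median log2 fold change of the 266 genes was 0.02 (quartiles -0.34 and 0.38), beside 0.01 over all genes. It was 0.25 for the 1515 genes at common peaks, 0.12 for the 3482 at mH2A1.1-only peaks and -0.13 for the 5680 under no peak. Exon GC content followed the same order, with medians, from mH2A1-only to no peak, of 47.5%, 56.4%, 50.2% and 43.7%. In that class order, with the offsets, the medians were 0.10, 0.07, 0.11 and 0.09, beside 0.09 over all genes, and without KD replicate 2 they were -0.01, 0.09, 0.06 and -0.06. The sign of the median for mH2A1-only starts therefore depended on the fit, and it lay close to that of all genes in these 3 fits.

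The genes with the smallest p among mH2A1-only starts lay on both sides, and none was called by edgeR with all 4 libraries and no offsets. With the offsets edgeR called EIF5A2, E2F5, FAM234B and AKR1C1, and without KD replicate 2 it called these 4 and RTKN2, MND1 and SHQ1. EIF5A2, a translation factor amplified in several carcinomas, stood at 45.9 and 40.7 CPM in WT and 19.7 and 12.3 in KD, and both KD libraries lay below both WT libraries. Its log2 fold change was -1.38 (SE 0.26, adjusted p = 0.175 with edgeR), -1.14 without KD replicate 2 and -0.64 with the offsets, and DESeq2 called it (adjusted p = 0.00489). E2F5, an E2F family member that acts with pocket proteins, was at 14.9 and 13.6 CPM in WT and 6.24 and 4.73 in KD. RTKN2 stood at 35.1 and 32.1 CPM in WT and 17.0 and 9.47 in KD. The other 2 on this side were MND1, a meiotic recombination factor, with a log2 fold change of -0.84 (SE 0.22), and SHQ1, an assembly factor of H/ACA ribonucleoproteins, with -1.01 (SE 0.27). Without KD replicate 2 the values of E2F5, RTKN2, MND1 and SHQ1 were -1.18, -0.98, -0.69 and -0.75. The peaks at the starts of EIF5A2, E2F5, RTKN2 and MND1 lay 84000, 66000, 87000 and 105000 bp from mH2A1.1, and that of SHQ1 touched an mH2A1.1 peak and held only the outermost start of the gene.
On the other side, FAM234B, which encodes a membrane protein, stood at 13.4 and 11.9 CPM in WT and 21.9 and 22.7 in KD, with a log2 fold change of 0.82 (SE 0.22, adjusted p = 0.193 with edgeR). AKR1C1, an aldo-keto reductase that inactivates progesterone, stood at 28.4 and 35.4 CPM in WT and 57.5 and 48.3 in KD, with 0.74 (SE 0.21). AKR1A1, the aldehyde reductase of the same superfamily, stood at 30.7 and 30.9 in WT and 45.8 and 80.9 in KD, with 1.01 (SE 0.29). SEC13, a subunit of the COPII coat and the nuclear pore, and KCTD2, a cullin adaptor gene, had 0.87 (SE 0.26) and 0.74 (SE 0.21), and the canonical start of KCTD2 lay under no peak. Without KD replicate 2 the values of AKR1A1, SEC13 and KCTD2 were 0.58, 0.48 and 0.56. AKR1C1 has close paralogs in its cluster, so its counts are uncertain. The peaks at the starts of FAM234B, AKR1C1, SEC13 and KCTD2 lay 6000, 3000, 6000 and 6000 bp from mH2A1.1. That of AKR1A1 touched an mH2A1.1 peak, and mH2A1.1 peaks covered 59.9% of AKR1C1.

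DESeq2 called 17 genes with their TSS in an mH2A1-only peak. The 9 higher in KD included RPL41 and RPLP1, both of the large ribosomal subunit, PSMD4, the ubiquitin receptor of the proteasome, ANAPC11, the RING subunit of the anaphase-promoting complex, LAMTOR4, of the lysosomal Ragulator complex, and CLPP, the mitochondrial matrix protease. RPL41 stood at 108 and 119 CPM in WT and 139.8 and 463 in KD, and KD replicate 2 was the highest. Its log2 fold change was 1.38 with DESeq2 and 0.30 in edgeR without that library. RPLP1 stood at 182 and 205 CPM in WT and 267 and 608 in KD, with 1.15 and 0.47 in the same fits. The other 3 higher ones were AKR1A1, SEC13 and ACAP3. The 8 lower in KD were EIF5A2, RTKN2, MND1, SHQ1, ESCO2, an acetyltransferase of sister chromatid cohesion, SLC4A7, a bicarbonate cotransporter, SPAG1 and GMFB. With the offsets in edgeR, the log2 fold changes of GMFB and SLC4A7 were -0.02 and -0.15, from -0.76 and -0.80 without them. ESCO2 stood at 59.7 and 58.2 CPM in WT and 35.0 and 12.8 in KD. For ACAP3, ANAPC11, ESCO2, SPAG1, GMFB and SHQ1 the canonical start lay outside the mH2A1-only peak. None of the 8 highest genes by WT level except RPL41 was called by DESeq2, and H2AC11 stood at 261 and 358 CPM in WT and 298 and 577 in KD, where the groups overlapped.

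**Figure D5:**
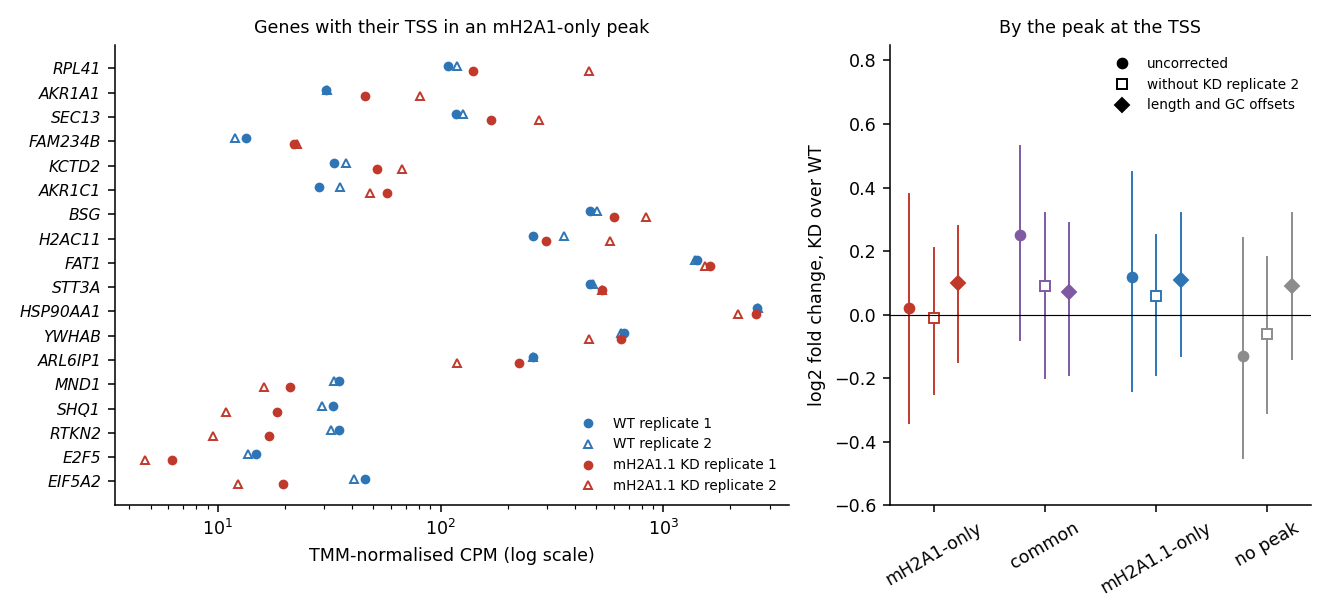
Left, TMM-normalised CPM (log scale) in each library for the genes with an mH2A1-only TSS that have the highest WT levels or the smallest p for KD against WT. Right, median log2 fold change (KD over WT) of all tested genes by the class of peak at the TSS, with lines from the lower to the upper quartile, uncorrected, without KD replicate 2 and with offsets for length and GC content. Uncorrected medians run from -0.13 to 0.25, and with the offsets the medians of the 4 classes lie between 0.07 and 0.11.

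Among the genes with at least 50% of their body under mH2A1-only peaks, 29 were tested and 24 had a log2 fold change above 0 (82.8%, beside 50.6% of all genes tested), with a median of 0.50 (quartiles 0.17 and 0.69). With the offsets 19 of the 29 lay above 0 (65.5%, beside 61.2% of all genes). None passed the edgeR thresholds, and DESeq2 called 2 of 13, both higher, beside 5.57% of all genes higher. They were RPL41 and CLPP, the latter with 48.7% of the gene under mH2A1.1. The median exon GC content of the 29 genes was 57.2% and their median exon length 2640.0 bp, against 47.1% and 5615 bp over all tested genes. With the offsets the median was 0.23, beside 0.09 over all genes, and without KD replicate 2 it was 0.27. The part of length, GC content and KD replicate 2 in these values cannot be told apart from that of the peaks with these libraries.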

How the data were processed

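MDA-MB-231 cells were profiled by ChIP-seq for mH2A1.1 and total mH2A1 (1 library each) and by RNA-seq (2 WT, 2 mH2A1.1 KD). Groups were taken from the labels. The authors aligned reads to GRCh38 with STAR 2.5.1, filtered at a mapping quality of 10 and, for RNA, removed duplicates and counted with HTSeq. The deposited RNA values are these counts. The authors called peaks against input with normR. The deposited peak files give positions, and their score column is 0 in every line, so no stricter threshold could be tried.

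Peaks were intersected on their 3000-bp grid, and GC content was read from GRCh38. Genes, exons and TSSs (outermost annotated start) came from GENCODE release 44, which matched 23061 of 23167 identifiers. The unmatched ones held 0.120% to 0.176% of the counts and were left out of the tests. KD was compared with WT by the quasi-likelihood test of edgeR 4.0.16 under R 4.3.3 (TMM, low-count filter, Benjamini-Hochberg adjustment) without chromosomes 21, 22 and X, and a call needed a fold change over 1.5 at an adjusted p under 0.1. DESeq2 1.42.0, other filters, offsets and overlap rules were alternatives. The edgeR test was also run on simulated data for WT against KD with 10943 genes and a biological CV of 0.166. It called 52.5% of log2 changes of 1 and 97.0% of changes of 2. Every simulated gene had this CV, and no simulated library stood apart as KD replicate 2 did. These shares therefore need not hold for the real libraries. Nothing in the labels ties the replicates to separate cultures, so p-values measure the spread between these libraries. Removing duplicates without molecular identifiers lowers counts of dense genes. Antibody Ab37264 has less affinity for mH2A1.1 than the custom antibody has, which bears on the comparison of both peak lists. Intervals are from scipy 1.17.1. The members, gene lists and tests were chosen with earlier results of these data known. Named genes were the 8 with the highest WT level per kb, the 8 with the most bases under members, the 5 higher and 5 lower in KD with the smallest p, the study's qPCR genes, up to 3 per family, those in the 5 widest peaks, the macroH2A genes and the markers. SMO, HMX1, CD300A, SF3B4 and the genes called by DESeq2 were added after their values were seen. The ChIP-seq input and promoter capture Hi-C were not analysed here.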

Additional observations from a re-analysis of the deposited data

How the results depend on the processing

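The number of mH2A1-only peaks was 6370 when mH2A1.1 within 9000 bp also counted as shared, and between 8690 and 14733 under the other rules. The share at promoters was 14.4% or 13.8% with mH2A1.1 within 3000 or 9000 bp counted as shared, 19.5% when only 50% of the length under mH2A1.1 counted as shared, 13.2% for peaks of 3000 bp, 23% for a TSS within 3000 bp, 6.24% for one within 1000 bp of the midpoint and 5.94% for protein-coding TSSs. The share between genes was 33.9%, 34.4% and 31.5% under the first 3 rules, 39.6% by the midpoint and 52.6% by protein-coding genes. The median GC content was 44.4%, 44%, 45.3% and 44.8% under the 4 overlap and width rules. The silent share of genes was 52.0% when silent meant under 10 counts, and the median WT level was 0.0681 CPM per kb with canonical starts, an alternative added after the data were seen, 0.0782, 0.0771 and 0.0773 under the 3 overlap rules and 0.254 for peaks of 3000 bp, against 0.138 in the report.

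Counts of calls depended most on the fit. Over all genes, DESeq2 called 878, edgeR without the filter on low counts 2143 and edgeR with the offsets 335. The corresponding counts at mH2A1-only starts were 17 of 170, 45 of 427 and 7 of 266 genes. These shares were 10.0%, 10.5% and 2.63%, beside 11.3%, 14.3% and 3.06% of all genes in the same fits. Leaving out 1 library in turn gave 2 to 4735 calls over all genes and 0 to 104 at mH2A1-only starts, the highest without KD replicate 1 and 908 and 19 without KD replicate 2. With the replicate block, edgeR called 2200 genes, 44 of them at mH2A1-only starts. That was 20.1% of all genes tested and 16.5% of the 266 at mH2A1-only starts. The deviations of same-numbered libraries correlated at 0.252. The replicate numbers mark no known shared batch, so the libraries share only a number. RLE factors and all chromosomes gave 0 calls. The median log2 fold change at mH2A1-only starts lay between -0.04 and 0.10 in all fits, and was 0.50 for genes with at least 50% of the body covered. No named gene was called in the edgeR fit of the report. Of the 41 fitted, 29 passed the thresholds under at least 1 alternative, and 8 had a value of the other sign under at least 1. Part of the named genes were chosen for a small p or for a DESeq2 call, itself an alternative. The count of 29 thus follows in part from that choice. The causes of the shifts between fits were not tested. The KD libraries are the shallower ones.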
